A study of Fagopyrum tataricum with 9 samples.

Results

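FtPinG0006689400.01 and FtPinG0006689500.01 are 2 genes with consecutive id numbers in the genome annotation of Tartary buckwheat (Fagopyrum tataricum). They were chosen by their ids from the study's list of phytohormone genes, where both stand under gibberellin biosynthesis as members of the iron/ascorbate-dependent oxidoreductase family, and they are 2 of the 33940 genes in the files. The list holds 37 gibberellin genes, of which 20 are oxidoreductases of this family. The study introduced its list as genes that changed during seed development in these same libraries, so the stage differences of the pair are given below as a description without a test. FtPinG0006689400.01 is called the first gene and FtPinG0006689500.01 the second gene.

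RNA was measured by sequencing in whole seeds of the cultivar XIQIAO NO.2, grown in the field without treatment. Seeds were taken at 13 DPA (days post anthesis, the green fruit stage), 19 DPA (the discoloration stage) and 25 DPA (the initial maturity stage), which gave 9 libraries in 3 replicates of each stage. All stages share the cultivar and field, and the labels state that the stages came from the same individual and the replicates from 3 plants, without saying which number marks which plant. Totals ranged from 22002318 to 25811462 counts per library. The 10 most abundant genes took a smaller share of these at 13 DPA (5.82 to 18.0%) than at 19 DPA (29.3 to 36.5%) or 25 DPA (33.9 to 35.9%). Scaling by library totals alone in place of TMM shifted the median gene (log2 fold change) by -0.82 from 13 to 19 DPA, by -0.29 from 19 to 25 DPA and by -1.12 from 13 to 25 DPA. Transcripts of the glutelin genes FtPinG0000417000.01 and FtPinG0008579200.01, which encode seed storage proteins, were present in all 9 libraries, at 2.69 to 30.2 and 35.8 to 166 FPKM (fragments scaled by gene length and library total).

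Gibberellins are growth hormones that promote cell expansion and embryo growth in developing seeds and oppose abscisic acid at germination. The last steps of their synthesis are carried out in the cytosol by soluble dioxygenases that need iron(II), 2-oxoglutarate and ascorbate. GA 20-oxidases and GA 3-oxidases of this family make the active hormones, while GA 2-oxidases of the same family inactivate them. The list does not say which of these activities the pair has, so a lower transcript level cannot be read as more or less hormone. The active hormone binds GID1-type receptors, which resemble lipolytic enzymes, and the bound receptor leads DELLA repressors of the GRAS family to degradation. GASA genes encode small cysteine-rich peptides, many of which respond to gibberellin.

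The first gene was present at 13 and 19 DPA and nearly absent at 25 DPA. Replicates 1, 2 and 3 of 13 DPA held 13, 175 and 144 counts, those of 19 DPA 145, 41 and 155, and those of 25 DPA 0, 3 and 2. In FPKM the 13 DPA replicates stood at 0.465, 5.84 and 5.64, the 19 DPA replicates at 5.49, 1.53 and 5.98, and the 25 DPA replicates at 0, 0.109 and 0.0727. Replicate 1 of 13 DPA was far below the other libraries of its stage, and replicate 2 was the lowest at 19 DPA. The libraries of 13 and 19 DPA overlapped, whereas all 3 libraries of 25 DPA were below every earlier library. A count of 0 allows up to 3 counts, or 0.115 FPKM in that library, so the 25 DPA libraries cannot be told from each other at this depth.

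The second gene was more abundant per length than the first in every library. Replicates 1, 2 and 3 of 13 DPA held 200, 332 and 198 counts, those of 19 DPA 209, 97 and 561, and those of 25 DPA 5, 65 and 33. In FPKM the 13 DPA replicates stood at 7.07, 10.96 and 7.67, the 19 DPA replicates at 7.82, 3.58 and 21.4, and the 25 DPA replicates at 0.190, 2.34 and 1.19. Replicate 3 of 19 DPA was the highest of all 9 libraries, and in FPKM replicate 2 of that stage lay below all 13 DPA libraries. That order depended on the scaling. On TMM-scaled CPM (counts scaled by library total and TMM factor), replicate 2 of 19 DPA stood at 5.73. This was above replicates 1 (5.16) and 3 (4.98) of 13 DPA and below replicate 2 (9.82) of 13 DPA. The 25 DPA libraries were again all lower than the earlier ones, but this gene was still detected in each of them.

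**Figure D1:**
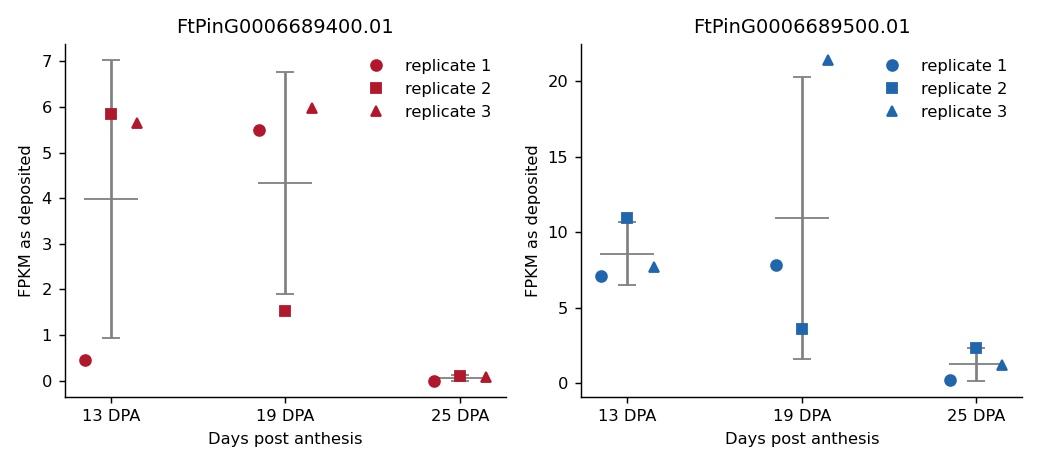
FPKM as deposited (vertical axis, a separate linear scale for each gene) of the first gene (left) and the second gene (right) in each library at 13, 19 and 25 DPA. Points are replicates, and grey bars are the mean and SD of 3 libraries. At 25 DPA the points reach at most 0.109 for the first gene and 2.34 for the second, below every point of the earlier stages.

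By stage mean, the order of the first gene was 19 DPA (4.33 ± 2.44 FPKM), 13 DPA (3.98 ± 3.05) and then 25 DPA (0.0607 ± 0.0557; SD, n = 3). The second gene had the same order, with means of 10.9 ± 9.31, 8.56 ± 2.09 and 1.24 ± 1.08 FPKM (SD, n = 3). In both genes the means of 19 and 13 DPA differed by less than the SD of the 19 DPA libraries. Both were genes of middling abundance at the earlier stages. The first gene had a higher mean FPKM than 48.5, 58.6 and 25.7% of all genes at 13, 19 and 25 DPA, and the second than 59.7, 76.0 and 49.4%. RNA was taken from whole seeds, so fewer cells with the transcript and less transcript per cell cannot be told apart.

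Fold changes were fitted to counts with TMM scaling, which sets the bulk of genes equal between libraries, and are given as later minus earlier stage on the log2 scale. Between 19 and 25 DPA the log2 fold change of the first gene was -5.71 (SE 1.16), a 52.2-fold lower level, and that of the second was -2.78 (SE 0.79), a 6.88-fold lower level. Between 13 and 25 DPA the values were -4.88 (SE 1.16) and -1.74 (SE 0.77), and with library totals alone as the scale -5.91 and -2.78. Of all genes tested, 1.22% had a lower value than the first gene from 19 to 25 DPA and 8.74% a lower value than the second. The median gene had -0.02 in that comparison and -0.07 from 13 to 25 DPA. The 25 DPA libraries of both genes lay below every library of 19 DPA on TMM-scaled counts, as did those of 28.2% of all genes tested, and below every library of 13 DPA, as did those of 34.2%. A decline without overlap was thus common in these seeds, and the pair is not set apart by it.

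The counting error alone is wide for the first gene, because its 25 DPA libraries held 5 counts in all against 341 at 19 DPA and 332 at 13 DPA. The ratio of the scaled sums of 19 over 25 DPA was 56.8, with an exact 95% interval of 24.1 to 176. For the second gene, with 103 counts at 25 DPA against 867 at 19 DPA and 730 at 13 DPA, the same ratio was 7.02 (5.71 to 8.69). These intervals do not overlap, but they cover counting error only and leave out the spread between replicates. Leaving out 1 library at a time moved the log2 fold change from 19 to 25 DPA between -6.31 and -5.15 for the first gene and between -3.49 and -1.97 for the second.

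Between 13 and 19 DPA the log2 fold change was 0.83 (SE 0.82) for the first gene and 1.04 (SE 0.72) for the second. Both values were less than 2 standard errors from 0, and the libraries of the stages overlapped. They also leaned on single libraries and on the scaling. Without replicate 1 of 13 DPA the first gene had 0.29, and without replicate 3 of 19 DPA the second had 0.22. With library totals alone as the scale, the first gene had 0.12 and the second 0.35.

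The spread between replicates was high for both genes. The biological coefficient of variation was 0.728 for the first gene and 0.631 for the second, above that of 95.5 and 93.0% of the genes tested, against a median of 0.290. Within 13 DPA, the highest library exceeded the lowest 15.4-fold for the first gene and 1.97-fold for the second on TMM-scaled counts. Within 19 DPA these ranges were 2.95-fold and 4.52-fold. At 25 DPA the second gene still ranged 11.5-fold, from 5 to 65 counts. The large spread of the first gene at 13 DPA came from replicate 1, whose total of 24102725 counts lay between those of the other replicates.

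The division of counts within the pair does not depend on scaling between libraries. The second gene held 93.9, 65.5 and 57.9% of the pair's counts in replicates 1, 2 and 3 of 13 DPA. In the same order it held 59.0, 70.3 and 78.4% at 19 DPA, then 100, 95.6 and 94.3% at 25 DPA. The stage means were 72.4 ± 19.0%, 69.2 ± 9.70% and 96.6 ± 2.99% (SD, n = 3). Every 25 DPA library was above every earlier one, but replicate 1 of 13 DPA, with a Clopper-Pearson 95% interval of 89.8 to 96.7%, fell within the intervals of the 25 DPA libraries. Replicate 1 of 25 DPA had 5 counts for the pair, all on the second gene, and an interval of 47.8 to 100%. Per length, the second gene was 1.36 to 3.58 times as abundant as the first in 5 of the 6 earlier libraries and 15.2 times in replicate 1 of 13 DPA. In the 2 libraries of 25 DPA where both were detected it was 21.4 and 16.3 times as abundant. This comparison was drawn from the same values as the stage differences and carries no test.

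**Figure D2:**
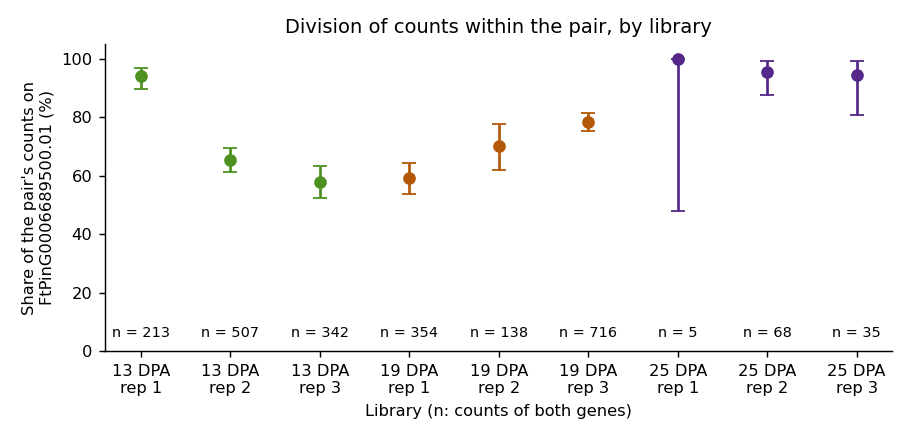
Share of the pair's counts on the second gene (vertical axis, percent) in each of the 9 libraries, with exact 95% binomial intervals that cover counting error only. The numbers above the axis are the counts of both genes together. The 25 DPA libraries and replicate 1 of 13 DPA lie at 93.9% or above, and the other 5 libraries lie between 57.9 and 78.4%.

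The 2 genes have implied lengths of 1161 and 1174 bases. How reads that match several places were counted is not given in the sources used here. If the pair is similar in sequence, reads may have been shared between them, and their separate values and their likeness are uncertain to that extent. Sequences and genome positions of the pair were not analysed here.

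Over the 9 libraries the log2 levels of the 2 genes had a Pearson r of 0.86, and the deviations from the stage means had an r of 0.58. The points share 3 stages and their library scaling, so these are descriptions. Among 23608 genes ranked by likeness, the second gene was in place 328 for the first gene, and the first in place 253 for the second. Many other genes were thus more alike to each than its neighbour. The 5 genes most like the first were FtPinG0002303900.01 (r = 0.97), FtPinG0008191300.01, FtPinG0005750800.01, FtPinG0004562000.01 and FtPinG0007456100.01 (r = 0.95). Those most like the second were FtPinG0003863600.01 (r = 0.99), FtPinG0004640500.01, FtPinG0009431800.01, FtPinG0003951900.01 and FtPinG0009872700.01 (r = 0.95). The first gene's closest match had a mean of 20.7, 14.6 and 4.08 FPKM at 13, 19 and 25 DPA, and that of the second gene 22.1, 14.7 and 7.96 FPKM.

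The pair was compared with the other 18 gibberellin oxidoreductase genes of the list. Of these, 17 had a count in some library, 5 of the 17 were left out by the filter on low counts and 12 were tested. In FPKM summed over all 20 genes, the pair made up 11.7, 12.8 and 12.7% in replicates 1, 2 and 3 of 13 DPA. Its share was 20.9, 6.24 and 18.1% in the 19 DPA replicates and 0.123, 1.31 and 0.729% in those of 25 DPA. The sum over the list did not decline with the pair. As the sum of stage means it was 99.9, 98.8 and 171 FPKM at 13, 19 and 25 DPA. Among the 20 genes by mean FPKM, the first gene stood in place 7, 9 and 14 at the 3 stages, and the second in place 4, 4 and 7. At 25 DPA, FtPinG0007406000.01 with 58.5 ± 19.8 FPKM and FtPinG0008198800.01 with 57.2 ± 9.97 FPKM (SD, n = 3) were the most abundant members.

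**Figure D3:**
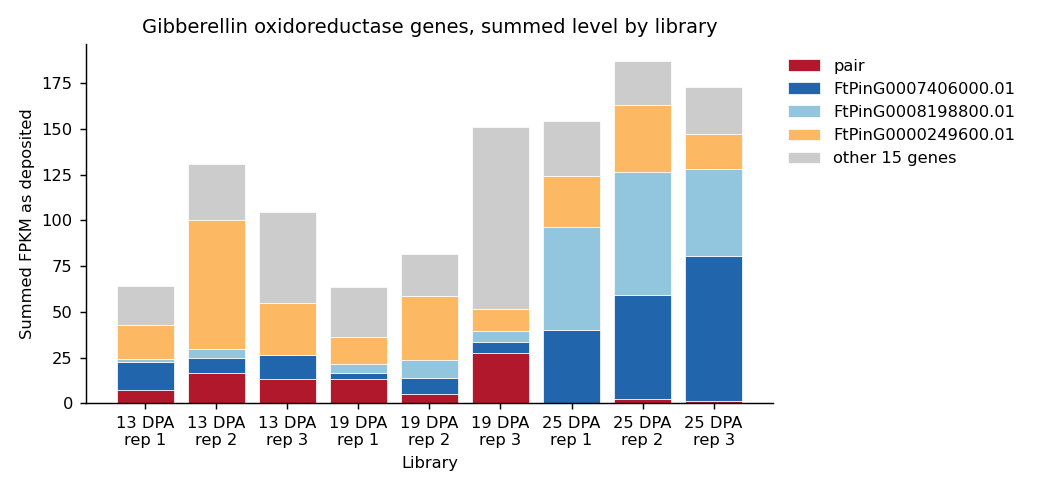
FPKM as deposited, summed over the 20 gibberellin oxidoreductase genes in each library, with the pair, FtPinG0007406000.01, FtPinG0008198800.01, FtPinG0000249600.01 and the remaining genes stacked. The pair takes 6.24 to 20.9% of the bar at 13 and 19 DPA and at most 1.31% at 25 DPA, while FtPinG0007406000.01 and FtPinG0008198800.01 make up most of the 25 DPA bars.

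A differentially expressed gene (DEG) had an edgeR quasi-likelihood FDR of at most 0.05, adjusted over all 23609 genes tested, together with a log2 fold change of 1 or more in either direction. Between 19 and 25 DPA, 3 of the 12 other oxidoreductase genes rose and 1 fell. Of all genes tested, 28.8% were DEGs in this comparison, with 9.27% higher and 19.5% lower. With library totals alone as the scale 3 rose and 3 fell, and without replicate 3 of 25 DPA 2 rose and 3 fell. Over all 23609 genes, library totals alone gave 7955, 6740 and 13982 DEGs from 13 to 19, 19 to 25 and 13 to 25 DPA. TMM gave 2024, 6793 and 9964, so the calls with library totals alone given below have that other background. FtPinG0004385200.01 went from 0.396 to 0.764 FPKM at 19 DPA to 4.34 to 6.79 at 25 DPA, a log2 fold change of 3.55 (SE 0.38, edgeR FDR 0.000618). FtPinG0007406000.01 went from 3.30 to 8.82 FPKM to 39.6 to 79.2, a log2 fold change of 3.53 (SE 0.49, edgeR FDR 0.00133). FtPinG0008198800.01 had counts of 129, 279 and 173 at 19 DPA and 1548, 1951 and 1379 at 25 DPA. Its log2 fold change was 3.25 (SE 1.02, edgeR FDR 0.0324), and the call was lost without replicate 1 or 3 of 19 DPA or without any 1 library of 25 DPA. These 3 genes were higher in every 25 DPA library than in any 19 DPA library, opposite in direction to the pair. They were named because they were DEGs, and the share of all genes with such a rise without overlap was not counted.

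FtPinG0002514700.01 was the 1 other oxidoreductase gene called lower from 19 to 25 DPA, with a log2 fold change of -6.08 (SE 1.88, edgeR FDR 0.0309). Its counts were 102, 4 and 782 at 19 DPA and 0, 5 and 5 at 25 DPA. Replicate 3 of 19 DPA, which was also the highest library of the second gene, held most of its counts, and replicate 2 of that stage overlapped the 25 DPA libraries. Without that replicate 3, 2 of the 12 genes were DEGs, and this gene was not among them. Its call was also lost without any 1 library of 25 DPA. Without replicate 1 of 25 DPA there were also 2. Of the 12 genes, 6 had a negative and 6 a positive log2 fold change in this comparison. FtPinG0003233400.01 had -3.59 (SE 1.30, edgeR FDR 0.0544). It was called lower with DESeq2, with library totals alone and with the replicate number as a block. FtPinG0005591800.01, at -1.51, was also called lower with that block. The median log2 fold change of the 12 genes was -0.15, against -0.02 over all genes tested, and -0.07 with FtPinG0007560600.01, which had no count at 25 DPA, set to its bound.

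Between 13 and 25 DPA, 5 of the 12 genes rose and 1 fell, where 42.2% of all genes tested were DEGs, 16.6% higher and 25.6% lower. FtPinG0008198800.01 rose by 5.60 (SE 1.15, edgeR FDR 0.00313), with counts of 48, 160 and 0 at 13 DPA. FtPinG0007406000.01 rose by 3.45 (SE 0.49, edgeR FDR 0.000513) and FtPinG0004385200.01 by 3.07 (SE 0.36, edgeR FDR 0.000217). FtPinG0008699300.01, at 1.81 (SE 0.66, edgeR FDR 0.0427), and FtPinG0002330600.01, at 1.78 (SE 0.64, edgeR FDR 0.0402), passed near the limit, and their 13 and 25 DPA libraries overlapped in FPKM. These calls stood in 9 and 6 of the 20 alternatives, and each was lost without replicate 1 or 3 of 13 DPA, replicate 3 of 19 DPA or replicate 1 or 3 of 25 DPA, among others. FtPinG0007560600.01 had counts of 108, 38 and 76 at 13 DPA and none at 25 DPA (edgeR FDR 0.00188), which is at least 33.3-fold lower with 3 counts allowed over the 25 DPA group. The median log2 fold change of the 12 genes was 1.13, against -0.07 over all genes, and it was the same with that gene at its bound. With library totals alone as the scale 3 genes rose and 4 fell, and with upper-quartile factors 5 rose and 3 fell.

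Between 13 and 19 DPA, 1 of the 12 genes rose and 1 fell (1 and 2 with library totals alone as the scale), where 8.57% of all genes tested were DEGs, 4.11% higher and 4.46% lower. FtPinG0002330600.01 had counts of 16, 18 and 14 at 13 DPA and 53, 52 and 62 at 19 DPA, a log2 fold change of 2.67 (SE 0.65, edgeR FDR 0.0341). FtPinG0007560600.01 had 5, 0 and 1 counts at 19 DPA, a log2 fold change of -4.27 (SE 0.89, edgeR FDR 0.0292). Both sets of counts were without overlap between the stages, but the share of all genes without overlap in this comparison was not counted. The median of the 12 genes was 0.45, against -0.03 over all genes. The count of 2 DEGs became 0 without replicate 1 or 3 of 13 DPA or replicate 2 or 3 of 19 DPA, 1 without replicate 1 of 19 DPA and 5 without replicate 2 of 13 DPA.

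**Figure D4:**
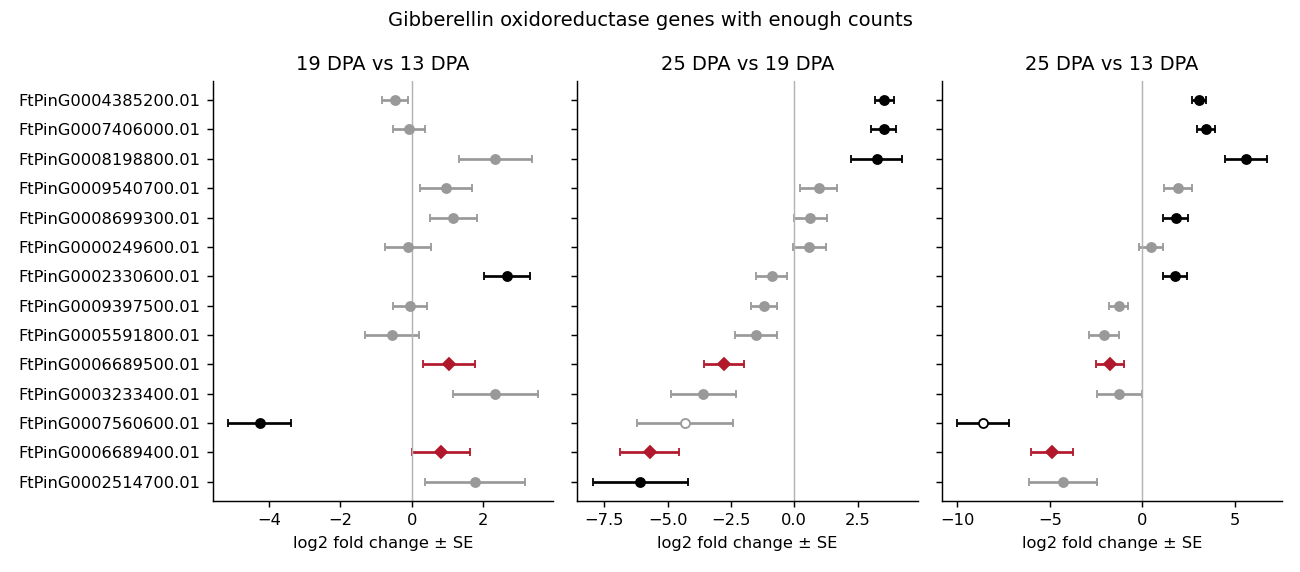
Log2 fold change with its SE (horizontal axis, a separate scale in each panel) of the 12 other oxidoreductase genes tested and of the pair, in the 3 comparisons. Red diamonds are the pair, shown without a test, black circles are DEGs and grey circles are genes that did not pass. White-centred circles are FtPinG0007560600.01 against its 25 DPA libraries, all at 0, where the fitted value is no bound. From 19 to 25 DPA the first gene lies at -5.71 and the second at -2.78, while 3 of the others lie above 3.

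Downstream genes of the pathway were counted in the same fit. Among the 4 genes listed as gibberellin receptors, 1 fell from 13 to 19 DPA and from 13 to 25 DPA, when 4.46 and 25.6% of all genes tested fell. This was FtPinG0006952100.01, at -2.18 (SE 0.47, edgeR FDR 0.0246) and -2.94 (SE 0.49, edgeR FDR 0.00109). Between 19 and 25 DPA, none of the 4 was a DEG by edgeR or by DESeq2, and none had an unadjusted p under 0.05. Without replicate 1 or 3 of 13 DPA, or any 1 of the 19 DPA libraries, the first of these calls was lost. None of the 3 listed GRAS genes was a DEG by edgeR in any comparison. Of these 3, 1 had an unadjusted p under 0.05 from 13 to 19 DPA and 1 from 13 to 25 DPA, and DESeq2 called 1 from 13 to 19 DPA. With library totals alone as the scale, 3 receptor genes fell from 13 to 19 and from 13 to 25 DPA, and 1 and 2 GRAS genes fell. Upper-quartile factors gave 1 GRAS gene lower from 13 to 25 DPA.

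Of the 10 GASA genes, 9 were tested, and 6 of them fell and 1 rose from 19 to 25 DPA, against 19.5 and 9.27% of all genes tested. The largest fitted fall was that of FtPinG0007503000.01, at -5.22 (SE 1.84, edgeR FDR 0.0492). This call was lost without any 1 library other than replicate 3 of 13 DPA or replicate 2 of 19 DPA. Between 13 and 25 DPA 4 fell and 1 rose, against 25.6 and 16.6% of all genes. DESeq2 gave 7 lower and 1 higher here, and library totals alone as the scale 8 and 1. The largest change was that of FtPinG0006417500.01 at -6.34 (SE 0.56, edgeR FDR 9.54e-05), from 20.9 to 36.7 FPKM at 13 DPA to at most 0.335 at 25 DPA. In the earlier interval, 13 to 19 DPA, 3 fell and none rose, against 4.46 and 4.11% of all genes, with FtPinG0006187600.01 at -5.95 (SE 0.93, edgeR FDR 0.0104). That gene had 399 counts in all at 13 DPA and 3 at 19 DPA, so the size of its fall is uncertain. The median log2 fold changes of the 9 genes were 0.07, -2.66 and -3.58 from 13 to 19, 19 to 25 and 13 to 25 DPA. The 7 calls from 19 to 25 DPA became 4 without replicate 1 or 3 of 19 DPA or replicate 2 or 3 of 25 DPA, and 3 without replicate 1 of 25 DPA. The 3 calls from 13 to 19 DPA became 1 without replicate 1 of 13 DPA. The study introduced its list as genes that changed in these same libraries, although the list also holds a gene with no count in any of them. The direction of the GASA genes is therefore not taken as independent evidence.

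Flavonol synthases belong to the same enzyme family and act in the synthesis of flavonols such as the rutin precursor quercetin. Of the 8 listed flavonol synthase genes, 6 were tested. Of these, 3 fell and 1 rose from 19 to 25 DPA, and 3 fell and 2 rose from 13 to 25 DPA (4 and 1 with library totals alone as the scale). Of all genes tested, 28.8 and 42.2% were DEGs in these comparisons. The largest change in both was the rise of a gene of low level, FtPinG0001742000.01, at 4.19 (SE 0.88, edgeR FDR 0.0061) and 3.47 (SE 0.78, edgeR FDR 0.0046). In the earlier interval FtPinG0008448800.01 rose by 3.02 (SE 0.67, edgeR FDR 0.0264), the only call of the 6 where 8.57% of all genes were called, and it was lost without replicate 1 or 3 of 13 DPA or replicate 1 or 2 of 19 DPA. With the replicate number as a block there were 2 calls.

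The id neighbourhood of the pair was examined, since the 2 ids follow each other directly. The 10 genes on either side by id number were taken, of which 18 of 20 passed the filter. Of the 18, 5 fell and 1 rose from 19 to 25 DPA, against 19.5 and 9.27% of all genes tested. With library totals alone as the scale 8 fell and 1 rose. The 5 were FtPinG0006687600.01 at -5.18 (SE 0.73, edgeR FDR 0.00135), FtPinG0006688900.01 at -3.47, FtPinG0006691100.01 at -3.24, FtPinG0006690900.01 at -3.22 and FtPinG0006686900.01 at -2.33. FtPinG0006690500.01 rose by 1.59 (SE 0.25, edgeR FDR 0.00199). The ids nearest to the pair did not share its direction on both sides. FtPinG0006688900.01, the nearest below, went from 14.6 to 32.7 FPKM at 19 DPA to 1.13 to 2.13 at 25 DPA. FtPinG0006689700.01, the nearest above, was at 2.97 to 4.60 FPKM and then 1.35 to 7.48, with overlap.

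Over the whole interval, 13 to 25 DPA, 6 neighbours fell and 3 rose (11 and 1 with library totals alone as the scale). The share called, 9 of 18, was near the 42.2% of all genes, of which 25.6% fell and 16.6% rose. Here FtPinG0006691300.01 joined the 5 named, at -1.53 (SE 0.35, edgeR FDR 0.00515). The risers were FtPinG0006689900.01 at 2.70, FtPinG0006689700.01 at 2.59 and FtPinG0006690500.01 at 1.25. Their 13 and 25 DPA libraries overlapped in FPKM, and these calls stood in 12, 17 and 16 of the 20 alternatives. None of the 3 was called with limma on FPKM. The call of FtPinG0006689900.01 was also lost without replicate 1 or 3 of 13 DPA or replicate 1 or 3 of 25 DPA. Already by 19 DPA 2 neighbours had fallen and none had risen, against 4.46 and 4.11% of all genes. These were FtPinG0006686900.01 at -1.75 (SE 0.26, edgeR FDR 0.00943) and FtPinG0006690900.01 at -1.34 (SE 0.36, edgeR FDR 0.0488). The latter was not called without replicate 1 or 2 of 13 DPA or without any 1 library of the later stages, which left 1 call, except without replicate 2 of 25 DPA, where another gene passed. The medians of the 18 genes were -0.17, -0.37 and -0.46 from 13 to 19, 19 to 25 and 13 to 25 DPA. Over the 9 libraries, FtPinG0006687800.01 was in place 22 in likeness to the second gene (r = 0.92). Its stage means were 195, 114.5 and 69.4 FPKM at 13, 19 and 25 DPA, with no DEG call in the main fit. With library totals alone as the scale it was called lower from 13 to 25 DPA.

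**Figure D5:**
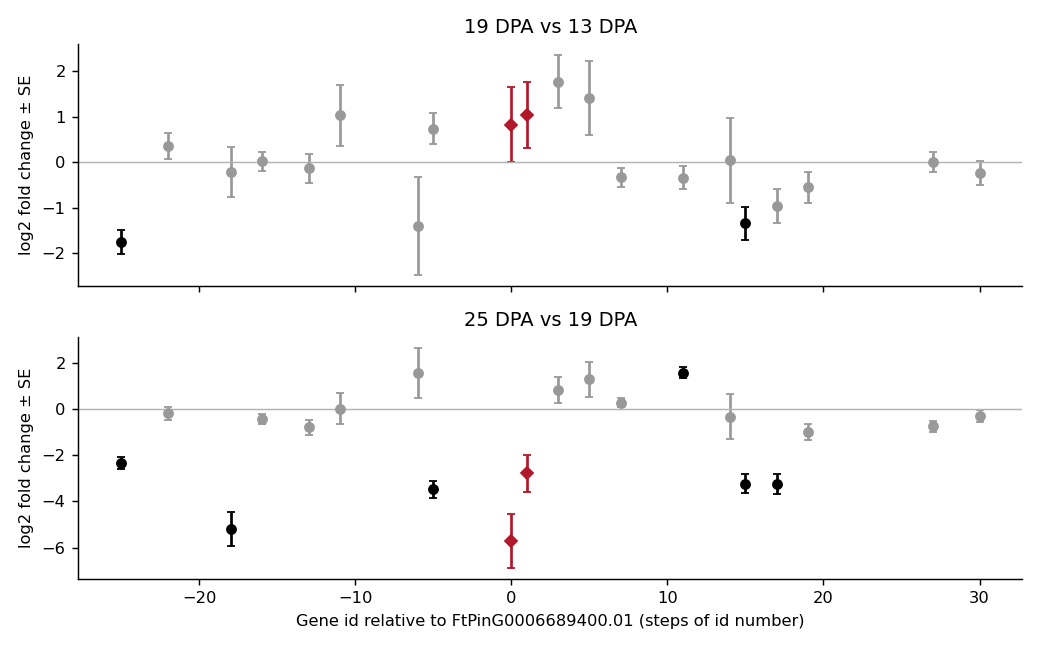
Log2 fold change with its SE (vertical axes) of the pair (red diamonds) and the 18 tested neighbours against the difference in id number from the first gene (horizontal axis), from 13 to 19 DPA (upper panel) and from 19 to 25 DPA (lower panel). Black circles are DEGs and grey circles are genes that did not pass. In the lower panel 5 neighbours fell, spread among neighbours near 0, and FtPinG0006690500.01 rose by 1.59.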

How the data were processed

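Paired-end reads were cleaned and aligned to the Pinku1 genome by the authors (TopHat2 2.0.12 and Bowtie2 2.0.6 in the submitters' processing notes), with new genes from a Cufflinks assembly. The raw count per gene and library was deposited. FPKM was computed by the authors from the same counts, gene length and library total, without scaling between libraries. Which tool counted reads, whether it used strand and how it handled multiple matches is not given in the sources used here. All 9 columns of each file were used. Totals of 22002318 to 25811462 counts made 1 count of the pair worth 0.033 to 0.0391 FPKM.

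The count table was fitted with edgeR 4.0.16 in R 4.3.3 (TMM, filterByExpr, robust quasi-likelihood fit over 9 libraries, stage as the only term). Benjamini-Hochberg adjustment covered 23609 genes, and 10331 were left out by the filter. The fold limit of 1 for a DEG was assumed, since the study's methods state it incompletely. SE was the size of the log2 fold change divided by the square root of F. The replicates are 3 plants by the labels. Likeness was Pearson's r of log2 CPM (prior count 2). The count method was tested on simulated data. Figures were drawn with matplotlib 3.10.9.

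The pair, the gene lists, the 10 ids on either side and the rules were chosen with earlier results of these data known. Named were the pair, DEGs among the other oxidoreductases and the neighbours, the DEG with the largest absolute fold change of each other list and comparison, and the 5 genes most like each of the pair. Other genes named for a level were chosen after their values were seen.

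Replicates of the same number were alike between 13 and 19 DPA. Deviations from the stage mean across genes correlated at 0.353, 0.494 and 0.59 for the same number and -0.478 to -0.111 for different numbers. Deviations cancel out within a stage, so the negative values are not independent of the positive ones. For 19 and 25 DPA the same numbers gave 0.0258 to 0.197, and for 13 and 25 DPA -0.0279 to 0.133. Alternatives were other scalings, no filter, DESeq2 1.42.0, only 6 libraries, a replicate block, no fold limit, limma 3.58.1 on log2(FPKM + 1 or 0.1) and each library left out.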

Additional observations from a re-analysis of the deposited data

How the results depend on the processing

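The fold changes of the pair and of the DEGs named kept their sign under each of the 20 alternatives that could fit them, while medians and genes that did not pass were not refitted. The balance of oxidoreductase calls did turn: from 13 to 25 DPA it was 3 higher and 4 lower with total counts and 3 and 5 with limma on log2(FPKM + 0.1), and from 19 to 25 DPA it was 2 and 3 with that limma fit and without replicate 3 of 25 DPA. Dropping the fold limit for a DEG gave 2, 4 and 6 oxidoreductase and 2, 8 and 11 neighbour calls from 13 to 19, 19 to 25 and 13 to 25 DPA. From 13 to 19 DPA, the second gene had 0.0377 with limma on log2(FPKM + 1), with or without a filter, and 0.0081 with a pseudocount of 0.1. From 19 to 25 DPA the first gene had -2.20 with limma on log2(FPKM + 1), with or without a filter, and -4.63 with 0.1. From 13 to 25 DPA it had -1.93 with log2(FPKM + 1), with or without a filter, and the second gene had -3.13 with 0.1. A pseudocount of 1 compresses low values by construction. DEGs among the other oxidoreductases numbered 10 with DESeq2 from 13 to 25 DPA (6 higher, 4 lower) and 4 with limma on log2(FPKM + 0.1) from 13 to 19 DPA. Neighbour DEGs from 13 to 19 DPA numbered 7 with total counts, 1 without a count filter, 7 with limma on log2(FPKM + 1), with or without a filter, and 8 with 0.1. Of all 23609 genes tested, 7955 were DEGs with total counts in that comparison, against 2024 in the main fit. The causes were not tested.

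With each library left out in turn, and the comparisons in the order 13 to 19, 19 to 25 and 13 to 25 DPA, the first gene had 0.29 to 1.45, -6.31 to -5.15 and -5.49 to -4.26. The second had 0.22 to 1.44, -3.49 to -1.97 and -2.45 to -1.23. The oxidoreductase DEGs numbered 0 to 5, 2 to 5 and 4 to 6, and the neighbour DEGs 1 to 2, 6 to 8 and 8 to 9. The stage mean share of the second gene ranged from 61.7 to 79.7%, 64.7 to 74.3% and 94.9 to 97.8%.

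With the replicate block, the first gene had 1.29, -6.00 and -4.71 and the second 0.99, -2.92 and -1.93. The block gave 2, 6 and 9 DEGs among the oxidoreductases, against 2, 4 and 6, and 2, 6 and 9 among the neighbours, as without it. From 19 to 25 DPA 3 oxidoreductases rose and 3 fell with the block, against 3 and 1 without it. From 13 to 25 DPA 5 rose and 4 fell, against 5 and 1. From 13 to 19 DPA, the comparison where the same numbers were most alike, the block gave 4 GASA calls instead of 3 and 2 flavonol synthase calls instead of 1. The 5 GASA calls from 13 to 25 DPA became 8.

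Depth limits, among others, the values at 25 DPA of the first gene, with 5 counts in all, and of FtPinG0007560600.01, with none. It also limits the value at 19 DPA of FtPinG0006187600.01, with 3 counts in all.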
